A study of Mus musculus with 24 samples.

Results

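The solute carriers of family SLC25 were described in liver and in inguinal white adipose tissue (iWAT, subcutaneous fat, here freed of its lymph nodes) of mice with and without a knockout of Mrs2. Mrs2 is the channel through which magnesium enters mitochondria. Members were all protein-coding genes whose symbol is Slc25a followed by a number, which gave 47 of the 54532 genes in the deposited expression table. The 8 groups, of 3 libraries each, crossed the genotypes WT and Mrs2 KO with chow and a Western diet (WD), begun at an age of 13 weeks and kept up for 52 weeks. Powder of the whole organ, 50 mg of liver or 100 mg of iWAT, gave the RNA. The labels do not say how the knockout was made or in which cells it acts. The series' design text gives 3 mice per group, and the question it names is the role of mitochondrial magnesium in metabolism. Values are FPKM, the fragments per kilobase of gene and per fixed library size, so that levels can be compared between genes of different length.

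SLC25 proteins sit mostly in the inner membrane of mitochondria and share a fold built from a repeated pair of membrane helices. Each moves a particular set of small molecules between the matrix and the cytosol, often by exchanging one substrate for another. In liver they serve the urea cycle, gluconeogenesis and the oxidation of fatty acids, and in adipose tissue the export of citrate for fatty acid synthesis and the import of acylcarnitines. A small group, the carriers encoded by Slc25a23, Slc25a24, Slc25a25 and Slc25a41, exchanges ATP bound to magnesium for phosphate, and all but the last are known for regulation by calcium.

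Recovered reads numbered 14.7 M to 19.5 M per library in liver and 15.4 M to 20.4 M in iWAT, which sets the precision of each level. The library size that the FPKM divide by, over these reads, was 0.769 to 1.07 in liver and 1.24 to 1.60 in iWAT. Hepatocyte genes summed to at least 23140 FPKM in every liver and at most 34.8 FPKM in iWAT, and adipocyte genes to 3543 FPKM or more in every iWAT library, as the tissue labels say. Mrs2 separated the genotypes in iWAT (2.74 to 5.01 FPKM in WT WD against 1.60 to 1.95 in KO WD) and in chow liver, but not in WD liver, where WT libraries stood at 4.10 to 5.11 FPKM and KO libraries at 4.10 to 5.21, a log2 difference of -0.07 ± 0.10 (adjusted p = 0.692). The WD livers are therefore named by their labels, as livers labelled WT or KO. Genes of exocrine pancreas were high in 1 library of liver KO chow (1644 FPKM) and 1 of liver WT WD (1341 FPKM), and genes of skeletal muscle in iWAT WT WD 1 (3637 FPKM), iWAT KO WD 1 (1066 FPKM) and liver WT chow 3 (144 FPKM), with less in liver KO WD 2 (65.6 FPKM) and KO chow 2 (21.2 FPKM).

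The family was unevenly expressed. In liver of WT mice on chow, 5 members took 56.8% to 60.6% of its summed FPKM. These were Slc25a47, a carrier known to be enriched in liver, Slc25a5, an exchanger of ADP for ATP, Slc25a39, required for glutathione import, Slc25a1, the citrate carrier, and Slc25a13, an aspartate/glutamate carrier also called citrin. In iWAT of the same group, the leading 5 took 62.6% to 65.4%, and they were Slc25a1, Slc25a5, the dicarboxylate carrier Slc25a10, Slc25a4, the exchanger of ADP for ATP best known from muscle and heart, and the phosphate carrier Slc25a3. The summed level was 1617 ± 152 FPKM in liver (SD, n = 3) and 819 ± 92.5 in iWAT. With libraries scaled by total reads instead, the sums were 1305 ± 142.5 in liver and 1170 ± 54.9 in iWAT. At the other end, Slc25a41 had 0 reads in each of the 12 liver libraries, where a count of 0 allows up to 3 reads in a library, and at most 2 reads in any iWAT library. Slc25a54 had at most 1 read in any of the 24 libraries. A mean of at least 0.5 FPKM over a tissue's 12 libraries was required for a test, and 39 of the 47 members met it in liver and 39 in iWAT. Not tested in both tissues were Slc25a2, Slc25a18, Slc25a31, Slc25a41, Slc25a43 and Slc25a54. Slc25a35 and Slc25a53 were not tested in liver, nor Slc25a13 and Slc25a21 in iWAT. The 47 members lie on 19 chromosomes, 17 of them on the plus strand. In the coordinates of the deposited table, the genes that the results turn on are Slc25a20 (chr9:108662088-108684641), Slc25a34 (chr4:141618824-141623821), Slc25a39 (chr11:102402985-102407946), Slc25a1 (chr16:17925223-17928219), Slc25a23 (chr17:57043711-57059863) and Slc25a24 (chr3:109123149-109168457).

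The tissues of WT mice on chow differed in the carriers of amino acids, of ATP and of ATP-Mg. Of 41 members tested, 30 were called at an adjusted p under 0.05 (limma), 23 higher in liver and 7 higher in iWAT, with a median log2 difference of 0.64. Log2 differences are on the log2(FPKM + 1) scale and are given ± their standard error. Among all 16408 genes tested, 63.7% were called, 31.4% higher in liver and 32.3% lower, with a median of -0.02, so a call by itself is common in this comparison. The split depended on scaling. With libraries scaled by total reads, which moved the median of all genes to -0.61, 12 members were called higher and 18 lower, beside 15.5% of all genes higher and 60.9% lower. With quantile normalization the members gave 20 and 10, beside 27.3% and 35.3%. Slc25a3 and Slc25a11 turned lower in liver under both of these scalings, Slc25a45 under the first and Slc25a5 under the second. No other called member changed sign under any alternative.

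Among carriers of amino acids, citrin differed most. Slc25a13 stood at 81.7, 92.4 and 115 FPKM in the 3 livers and 0.151, 0.256 and 0.408 in the 3 iWAT libraries, a log2 difference of 6.25 ± 0.14 (adjusted p = 2.07e-18). Slc25a12, the other aspartate/glutamate carrier, was nearer in level, with 3.43, 4.56 and 3.48 in liver and 1.25, 1.42 and 1.75 in iWAT (0.96 ± 0.19, adjusted p = 0.00018). The FPKM ratio of Slc25a13 to Slc25a12 was 25.7 ± 6.60 (SD, n = 3) in liver and 0.178 ± 0.0558 in iWAT. Slc25a15, the ornithine carrier of the urea cycle, was at 55.0, 62.0 and 52.4 FPKM in liver and 1.95, 2.02 and 1.33 in iWAT, a log2 difference of 4.38 ± 0.15 (adjusted p = 3.35e-15). The enzymes of that cycle differed in the same direction, 6 of 6 tested being called higher in liver. Slc25a22, a glutamate carrier, differed less, with 38.2, 30.0 and 40.3 against 17.5, 13.0 and 12.5 (1.28 ± 0.17). All libraries of liver lay above all of iWAT for these 4 members.

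Slc25a47 showed the largest log2 difference of the family on this scale, 7.09 ± 0.22 (adjusted p = 5.73e-16), with 289, 217 and 344 FPKM in liver and 1.01, 1.26 and 0.908 in iWAT. Slc25a21, a carrier of oxoadipate and related dicarboxylates, was at 2.58, 3.04 and 3.89 FPKM in liver and at 0.0363, 0.0272 and 0.0397 in iWAT (2.0 ± 0.13). Slc25a48, linked to the import of choline, was at 6.81, 6.09 and 7.07 against 0.301, 1.60 and 0.413 (2.18 ± 0.29). The glutathione-linked Slc25a39 was at 136, 159 and 181 in liver and 36.3, 35.0 and 32.7 in iWAT (2.16 ± 0.15). All of these separated the tissues without overlap, and the coenzyme A carrier Slc25a42 differed by 1.82 ± 0.35. Slc25a37, the mitochondrial iron importer mitoferrin-1, was at 13.3, 16.6 and 19.5 FPKM in liver and 4.29, 3.74 and 7.10 in iWAT (1.55 ± 0.20), while its paralog Slc25a28 was at 17.0 ± 3.49 FPKM in liver and 19.7 ± 2.08 in iWAT (adjusted p = 0.168). Slc25a20, the carnitine/acylcarnitine carrier, was at 22.6, 27.7 and 26.1 in liver and 13.1, 12.9 and 9.13 in iWAT, higher in liver by 1.07 ± 0.22.

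Members higher in iWAT included Slc25a4, with 3.22, 3.78 and 11.8 FPKM in liver and 79.4, 77.2 and 56.6 in iWAT (-3.48 ± 0.39, adjusted p = 2.4e-07). Its highest chow liver value, 11.8, came from the library with muscle genes, and the part of those cells in it was not tested. Slc25a5 had the opposite order, at 243, 300.3 and 279 in liver and 139.9, 143 and 116 in iWAT (1.04 ± 0.11). Slc25a5 over Slc25a4 was 1.89 ± 0.148 in iWAT and 59.5 ± 31.2 in liver. The table also lists a processed pseudogene of Slc25a5, and how reads shared with it were counted is not given in the sources used here. Slc25a35, a carrier of unsettled substrate, was at 0.510, 0.375 and 0.221 FPKM in liver and 10.1, 10.1 and 8.71 in iWAT (-2.96 ± 0.15). It shares 31.3% of its exonic bases with Rangrf on the other strand, which averaged 0.0271 FPKM in liver and 0.22 in iWAT. Slc25a36, a pyrimidine nucleotide carrier, was at 0.510, 0.975 and 0.642 FPKM in liver and 5.70, 5.71 and 5.20 in iWAT (-1.94 ± 0.10). Slc25a27, named for its likeness to uncoupling proteins, was at 0.953, 0.370 and 0.330 in liver and 1.21, 0.742 and 1.18 in iWAT (-0.41). Slc25a53, of unknown substrate, was at 0.481, 0.298 and 0.275 and 0.527, 0.633 and 0.700 (-0.26). Both were called lower in liver, although Slc25a27 overlapped between the tissues, and each call was lost without 4 of the 6 libraries in turn.

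The ATP-Mg/phosphate carriers were split between the tissues. Slc25a23 was at 72.9, 57.5 and 72.8 FPKM in liver against 19.6, 22.7 and 16.4 in iWAT (1.75 ± 0.13, adjusted p = 1.31e-09), and Slc25a25 at 42.1, 46.0 and 31.0 against 3.48, 4.09 and 2.27 (3.25 ± 0.45). Slc25a24 had the opposite order, with 0.831, 1.30 and 0.804 in liver and 5.34, 4.20 and 4.14 in iWAT (-1.49 ± 0.19, adjusted p = 1.03e-06). In none of the 3 did the tissues overlap. All 3 kept their call when each WT chow library was left out in turn.

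**Figure D1:**
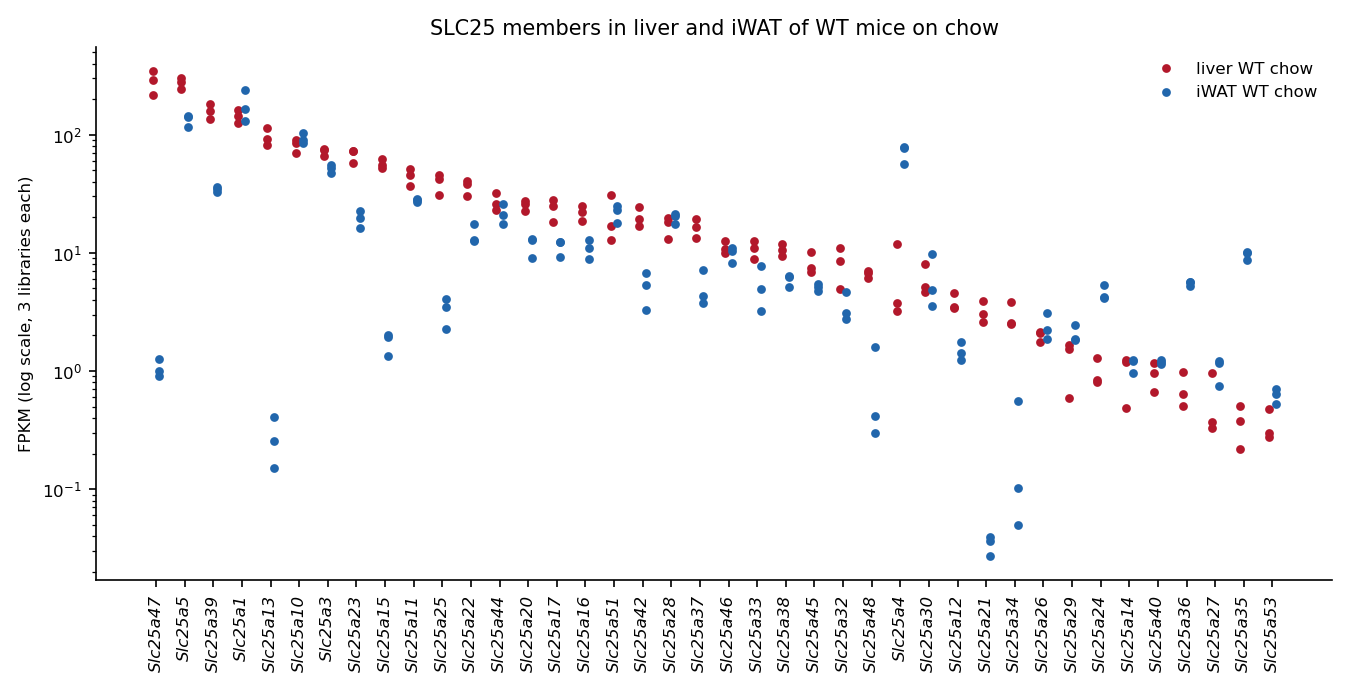
FPKM of 40 of the 41 members tested between tissues (horizontal axis, ordered by the mean in liver) in the 3 liver and 3 iWAT libraries of WT mice on chow, on a logarithmic vertical axis. Slc25a47, Slc25a13, Slc25a15 and Slc25a25 lie far higher in liver, and Slc25a4, Slc25a36 and Slc25a35 far higher in iWAT.

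The starts of 6 members that the results turn on are shown because they moved together or against each other: Slc25a20, Slc25a34, Slc25a39 and Slc25a1 rose in KO iWAT on WD, and Slc25a23 and Slc25a24 moved oppositely in liver. Each window runs from 250 bases before to 50 after a start in RefSeq (GRCm38.p6, the patch series of mm10), 5′ to 3′ on the gene's strand. The Slc25a39 window lies wholly inside that gene's deposited coordinates (chr11:102402985-102407946), so the RefSeq start used is downstream of the deposited one. Slc25a23 had another window, chr17:57059793-57060092, which is not shown. Capitals mark the GC box (GGGCGG), the CCAAT box (CCAAT), the E box (CACGTG), a nuclear receptor core element (AGGTCA) and the TATA box (TATAAA) on either strand.
Slc25a20, plus strand, chr9:108661886-108662185: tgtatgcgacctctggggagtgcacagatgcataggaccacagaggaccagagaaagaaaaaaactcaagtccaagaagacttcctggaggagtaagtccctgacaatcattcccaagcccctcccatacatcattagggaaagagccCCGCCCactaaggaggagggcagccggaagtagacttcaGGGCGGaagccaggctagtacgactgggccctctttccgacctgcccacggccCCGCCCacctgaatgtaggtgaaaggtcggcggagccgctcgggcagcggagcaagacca
Slc25a34, minus strand, chr4:141623785-141624084: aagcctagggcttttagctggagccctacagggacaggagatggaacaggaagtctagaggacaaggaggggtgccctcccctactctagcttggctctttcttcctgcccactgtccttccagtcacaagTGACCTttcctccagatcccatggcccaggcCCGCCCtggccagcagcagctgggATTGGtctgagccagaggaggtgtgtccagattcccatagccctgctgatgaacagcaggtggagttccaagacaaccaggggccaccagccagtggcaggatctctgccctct
Slc25a39, minus strand, chr11:102407468-102407767: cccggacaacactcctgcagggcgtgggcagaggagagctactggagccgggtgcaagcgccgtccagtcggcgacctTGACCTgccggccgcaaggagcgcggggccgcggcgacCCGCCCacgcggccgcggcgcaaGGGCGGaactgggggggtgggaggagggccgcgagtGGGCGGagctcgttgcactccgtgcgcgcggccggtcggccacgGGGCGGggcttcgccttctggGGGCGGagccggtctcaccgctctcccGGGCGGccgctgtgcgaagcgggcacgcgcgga
Slc25a1, minus strand, chr16:17928170-17928469: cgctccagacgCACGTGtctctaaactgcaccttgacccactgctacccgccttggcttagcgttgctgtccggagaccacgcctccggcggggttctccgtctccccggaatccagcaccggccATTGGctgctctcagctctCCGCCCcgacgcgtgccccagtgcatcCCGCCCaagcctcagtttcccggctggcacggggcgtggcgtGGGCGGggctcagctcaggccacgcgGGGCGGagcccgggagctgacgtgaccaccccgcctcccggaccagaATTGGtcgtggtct
Slc25a23, minus strand, chr17:57059814-57060113: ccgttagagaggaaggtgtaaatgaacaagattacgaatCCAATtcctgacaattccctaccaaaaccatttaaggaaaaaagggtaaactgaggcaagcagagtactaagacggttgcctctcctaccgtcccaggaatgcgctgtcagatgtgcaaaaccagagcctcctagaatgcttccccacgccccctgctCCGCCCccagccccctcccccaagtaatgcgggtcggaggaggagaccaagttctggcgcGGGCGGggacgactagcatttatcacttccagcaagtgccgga
Slc25a24, plus strand, chr3:109122899-109123198: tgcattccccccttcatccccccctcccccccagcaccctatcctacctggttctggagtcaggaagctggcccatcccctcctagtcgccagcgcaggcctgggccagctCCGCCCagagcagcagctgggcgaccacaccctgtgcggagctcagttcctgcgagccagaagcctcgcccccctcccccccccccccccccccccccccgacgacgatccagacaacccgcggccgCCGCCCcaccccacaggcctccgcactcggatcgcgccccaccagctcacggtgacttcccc

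Windows were found for 36 of the 47 members, 46 windows in all. A GC box stood in 82.6% of them, beside 35.7% of all 32851 windows, which include those of non-coding genes. Their median share of G and C was 59.3%, beside 52.7% over all. The core element stood in 8.7% of the members' windows (4 members, Slc25a34, Slc25a39, Slc25a45 and Slc25a47) and in 16.3% of all. The CCAAT box was in 47.8% against 37.4%, the E box in 17.4% against 7.15% and the TATA box in 4.35% against 13.6%. Among the 6 windows shown, Slc25a39 held 6 GC boxes and 1 core element, Slc25a1 held 4 GC boxes, 2 CCAAT boxes and 1 E box, Slc25a23 held 2 GC boxes and 1 CCAAT box, and Slc25a34 held 1 GC box, 1 CCAAT box and 1 core element. Slc25a20 held 3 GC boxes and Slc25a24 held 2, and none of the other 4 motifs was in either window. A match is a description of letters and no site of binding.

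On WD, livers labelled KO had higher levels of many carriers than livers labelled WT, and lower levels of a few. Of 39 members tested, 14 were called higher and 2 lower (limma). Among 14019 genes, 21% were called, 10.6% higher and 10.4% lower. The members' median log2 difference was 0.35, beside 0.07 over all genes, and 31 of the 39 were above 0. The share over genes depended on level. A fit of the 6475 genes with a mean of at least 5 FPKM called 20.5% higher and 5.76% lower, with a median of 0.18. The deposited FPKM carry a scaling factor per library, the size they divide by over the reads, which was 0.980 to 1.07 in the WD livers labelled WT and 0.798 to 0.828 in those labelled KO. With libraries scaled by total reads instead, the median of all genes moved to -0.17, that of the members to 0.09, and 4 members were called higher and 3 lower, beside 2.4% of all genes higher and 21.6% lower. Of the 16 called members, Slc25a3 changed sign under that scaling, and none changed sign under any other scaling.

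Amino acid carriers gave 3 of the 14 rises and carriers of di- and tricarboxylates 2. Citrin, Slc25a13, was at 53.6, 58.6 and 51.6 FPKM in the livers labelled WT and 86.5, 95.4 and 82.0 in those labelled KO, a log2 difference of 0.68 ± 0.13 (adjusted p = 0.00654). The groups did not overlap, and the call was kept without any 1 of the 6 libraries. Slc25a22 went from 21.8, 32.1 and 22.4 to 42.0, 37.5 and 47.2 (0.73 ± 0.17, adjusted p = 0.0142), and Slc25a15 from 42.1, 52.6 and 36.6 to 86.8, 59.7 and 64.6 (0.67 ± 0.18). The citrate carrier Slc25a1 was at 61.4, 73.6 and 56.2 FPKM against 90.8, 95.9 and 98.6 (0.58 ± 0.15, adjusted p = 0.0255), and its call was lost in 5 of 6 leave-one-out fits. The oxoadipate carrier Slc25a21 rose by 0.52 ± 0.16. No member of the amino acid group fell, and the median over its 7 tested members was 0.38.

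The acylcarnitine carrier Slc25a20 was at 16.0, 22.9 and 21.5 FPKM in the livers labelled WT and 27.4, 28.1 and 35.2 in those labelled KO, a log2 difference of 0.57 ± 0.16 (adjusted p = 0.0331). The ranges did not overlap, but the call was kept in only 1 of 6 leave-one-out fits. It passes acylcarnitines into the matrix for oxidation, and Cpt2, the enzyme that then releases the acyl group, rose by 0.79 ± 0.14 (adjusted p = 0.00537). Cpt2 was the only called gene among the 5 carnitine shuttle enzymes tested.

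The ATP-Mg/phosphate carriers moved in opposite directions. Slc25a24 was at 4.70, 3.09 and 3.75 FPKM in the livers labelled WT and at 0.902, 1.01 and 0.670 in those labelled KO, a log2 difference of -1.37 ± 0.16 (adjusted p = 0.00111), the largest fall of the family. Behind these values stand 259, 171 and 208 reads against 39, 47 and 27. Slc25a23 was at 36.4, 46.7 and 43.7 FPKM against 71.2, 84.0 and 72.7 (0.83 ± 0.13, adjusted p = 0.00327). Neither overlapped between the groups, and both calls were kept in all 6 leave-one-out fits and in every other alternative that tested them. Slc25a25 varied widely within groups, with 20.9, 42.1 and 15.3 against 71.9, 33.8 and 63.0 (1.13 ± 0.47, adjusted p = 0.114), and its groups overlapped. The FPKM ratio of Slc25a23 to Slc25a24 was 11.5 ± 3.69 (SD, n = 3) in the WD livers labelled WT, 90.3 ± 15.9 in those labelled KO, 74.2 ± 25.9 in WT chow and 105 ± 32.5 in KO chow.

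Most macrophage genes listed moved with Slc25a24. The 8 genes of that list summed to 1114, 558 and 1392 FPKM in the 3 WD livers labelled WT, 246 to 313 in those labelled KO and 172 to 385 in WT chow, and none was at 0 in all 3 libraries of a liver group. Of the 8, 7 were called lower in the livers labelled KO. The remaining 1 was higher there, by 1.1 on the log2 scale and without overlap, and was not called. Of 5 lymphocyte genes tested, 4 were called lower too, and that list summed to 212, 32.9 and 59.5 FPKM in the livers labelled WT against 11.2, 17.2 and 19.2 in those labelled KO. Hepatocyte genes moved the other way, with 4 of 7 called higher. The part of these lists in the carriers' differences was not tested, and in whole tissue fewer cells of a type cannot be told apart from less RNA per cell.

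Cofactor and nucleotide carriers gave 2 rises and 1 fall among 9 tested. Slc25a42, which imports coenzyme A, was at 11.0, 16.7 and 18.6 FPKM in livers labelled WT and 26.4, 28.8 and 34.2 in those labelled KO (0.93 ± 0.19, adjusted p = 0.00920). Slc25a16, also linked to coenzyme A, was at 11.9, 15.0 and 15.2 against 21.4, 21.8 and 20.1 (0.56 ± 0.12, adjusted p = 0.0107). Both were separated without overlap and both calls were kept in all 6 leave-one-out fits. Slc25a36 fell, from 1.77, 1.07 and 1.62 to 0.695, 0.666 and 0.657 (-0.56 ± 0.14, adjusted p = 0.0208), and its call was kept in 1 of 6.

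Carriers of less settled substrates gave 4 rises among 8 tested. Slc25a48 was at 3.84, 4.24 and 3.15 FPKM in livers labelled WT and 9.03, 8.75 and 7.29 in those labelled KO (0.98 ± 0.16, adjusted p = 0.00421), and Slc25a34, an orphan carrier, at 2.26, 1.67 and 2.36 against 4.40, 3.44 and 5.90 (0.83 ± 0.17, adjusted p = 0.00956). Slc25a45 was at 9.82, 10.5 and 9.94 against 17.7, 12.5 and 15.6 (0.54 ± 0.14, adjusted p = 0.0233). Slc25a46, a member of the outer membrane tied to mitochondrial shape, was at 7.40, 8.86 and 7.69 against 11.9, 10.1 and 13.6 (0.52 ± 0.13, adjusted p = 0.0186). Slc25a45 and Slc25a46 each kept the call in 2 of 6 leave-one-out fits. Slc25a47, the most abundant liver member, was at 123, 229 and 236 against 217, 387 and 288 (0.62 ± 0.28, adjusted p = 0.149) and overlapped. Slc25a30 varied within the groups, with 7.30, 7.30 and 10.7 against 36.3, 4.95 and 26.9 (0.98 ± 0.66, adjusted p = 0.331). The phosphate carrier Slc25a3 rose by 0.30 ± 0.08. The iron and glutathione carriers, Slc25a28, Slc25a37, Slc25a39 and Slc25a40, gave no call, with log2 differences from -0.14 to 0.28. Without the liver libraries high in pancreas or muscle genes (WT chow 3, KO chow 1 and 2, WT WD 2 and KO WD 2), 12 members were called, 9 of them among the 16. That fit called 1205 of 14019 genes.

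**Figure D2:**
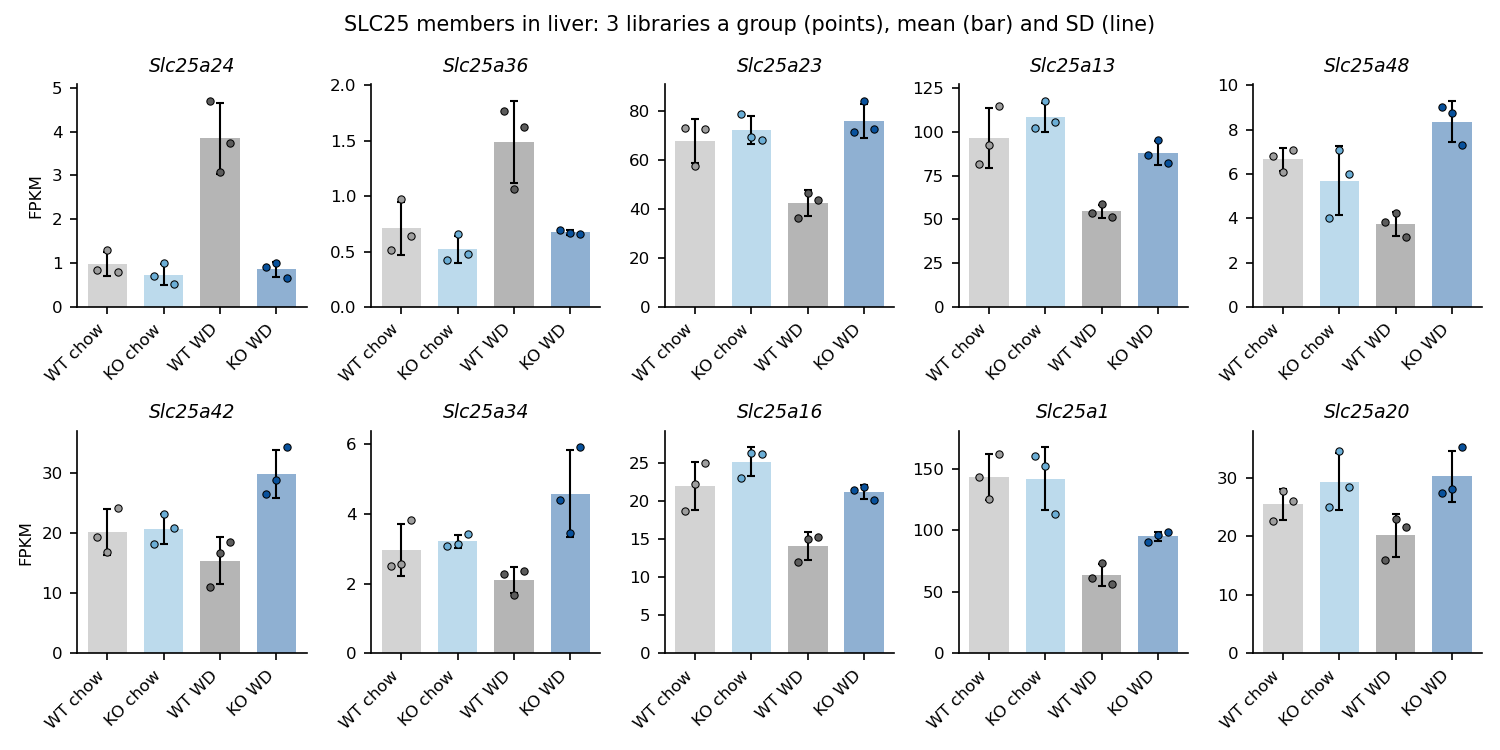
FPKM (vertical axis) of 10 members in the 4 liver groups (horizontal axis), with each library as a point, the mean as a bar and the SD as a line (n = 3). Slc25a24 and Slc25a36 are high in WT WD, and the other 8 are higher in KO WD than in WT WD without overlap.

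In livers labelled WT, WD against chow gave calls in mostly the opposite direction. The comparison shares the WT WD libraries with the previous one, so its values stand beside it and are not independent of it. Of 39 members tested, 2 were called higher and 9 lower, with a median of -0.36. Beside them, 19.2% of 14019 genes were called, 9.72% higher and 9.49% lower, with a median of -0.05 over all genes. A fit of the 6475 genes with a mean of at least 5 FPKM called 6.16% higher and 18.6% lower, with a median of -0.16. With scaling by total reads, the median of all genes was 0.20 and that of the members -0.04, and 3 members were called higher and 3 lower, beside 25.8% of all genes higher and 2.46% lower. No called member changed sign under any alternative. Without the libraries high in pancreas or muscle genes, 4 were called, 2 of them among the 11, beside 331 of 14019 genes. Fitting only these groups also left 4, beside 709 genes.

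Slc25a24 rose from 0.831, 1.30 and 0.804 FPKM on chow to 4.70, 3.09 and 3.75 on WD (1.29 ± 0.16, adjusted p = 0.00112). Slc25a36 rose from 0.510, 0.975 and 0.642 to 1.77, 1.07 and 1.62 (0.54 ± 0.14, adjusted p = 0.0261). For both, every WD library lay above every chow library. The citrate carrier Slc25a1 fell from 143, 125 and 162 to 61.4, 73.6 and 56.2 (-1.16 ± 0.15, adjusted p = 0.00147), the largest fall in this comparison. Slc25a13 went from 81.7, 92.4 and 115 to 53.6, 58.6 and 51.6 (-0.80 ± 0.13) and Slc25a23 from 72.9, 57.5 and 72.8 to 36.4, 46.7 and 43.7 (-0.67 ± 0.13). Smaller falls were called for 6 others. Slc25a48 went from 6.81, 6.09 and 7.07 to 3.84, 4.24 and 3.15 (-0.70) and Slc25a16 from 18.7, 22.2 and 25.0 to 11.9, 15.0 and 15.2 (-0.61). Slc25a38, the glycine carrier of heme synthesis, went from 9.43, 10.5 and 11.8 to 5.91, 7.98 and 6.98 (-0.55). The abundant Slc25a39 went from 136, 159 and 181 to 91.2, 117 and 122 (-0.53) and the phosphate carrier Slc25a3 from 66.3, 73.5 and 75.1 to 47.5, 53.5 and 48.8 (-0.51). Slc25a46 went from 9.90, 10.7 and 12.7 to 7.40, 8.86 and 7.69 (-0.42). The 11 called members were each separated without overlap between the diets. Called or not, 2 of the 39 members lay higher and 15 lower without overlap, and the share over all genes was not counted. The calls of Slc25a24, Slc25a1, Slc25a3, Slc25a13, Slc25a23 and Slc25a16 were kept without any 1 library. Slc25a20 was at 22.6, 27.7 and 26.1 on chow and 16.0, 22.9 and 21.5 on WD (-0.33 ± 0.16, adjusted p = 0.179), and Slc25a25 at 42.1, 46.0 and 31.0 and 20.9, 42.1 and 15.3 (-0.69 ± 0.47, adjusted p = 0.334). Neither was called, and both overlapped between the diets.

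The remaining 3 comparisons in liver called no member. KO against WT on chow called 0% of 14019 genes (675 at an unadjusted p under 0.05, 2 of them members), with a smallest adjusted p among the members of 0.863. The lowest unadjusted p was that of Slc25a45, at 7.47, 10.2 and 6.95 FPKM in WT and 11.7, 12.4 and 13.2 in KO (0.56 ± 0.14). Next came Slc25a51, the NAD carrier, at 12.9, 30.9 and 17.0 against 26.2, 25.0 and 36.4 (0.58 ± 0.26), and Slc25a29, a carrier of basic amino acids, at 0.594, 1.53 and 1.65 against 1.88, 1.31 and 2.27 (0.34 ± 0.21). DESeq2 and edgeR on the recovered reads also called no member there. The diets compared in livers labelled KO called 0.421% of all genes (2152 at an unadjusted p under 0.05, 8 of them members). Slc25a51 was at 26.2, 25.0 and 36.4 on chow against 13.1, 15.6 and 12.6 on WD (-1.01 ± 0.26, adjusted p = 0.130) and Slc25a1 at 161, 152 and 113 against 90.8, 95.9 and 98.6 (-0.56 ± 0.15, adjusted p = 0.149). Slc25a48 was at 4.01, 7.06 and 6.0 against 9.03, 8.75 and 7.29 (0.51 ± 0.16). DESeq2 called 3 members lower in that comparison and edgeR 0, beside 353 and 46 of 14019 genes lower. Slc25a24 stood at 0.702, 0.995 and 0.511 on chow and 0.902, 1.01 and 0.670 on WD in livers labelled KO (0.10 ± 0.16, adjusted p = 0.795). In the KO chow livers Slc25a20 was at 25.1, 34.6 and 28.4, Slc25a23 at 78.6, 69.3 and 68.2 and Slc25a25 at 24.6, 59.3 and 79.1.

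The interaction of genotype and diet, which tests whether the diets' difference depends on the genotype, called 0.549% of genes and no member in limma. Slc25a24 had an interaction of -1.19 ± 0.23 (adjusted p = 0.0527), Slc25a48 of 1.2 ± 0.23 (adjusted p = 0.0551) and Slc25a23 of 0.74 ± 0.18 (adjusted p = 0.112). DESeq2 called 3 members, among them Slc25a24 at an adjusted p of 0.00718, beside 528 of 14019 genes. No member was called with edgeR, beside 13 genes. With scaling by total reads the adjusted p of Slc25a24 was 0.0253.

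In iWAT on WD, KO mice had more of the acylcarnitine, citrate and glutathione-linked carriers. Of 39 members tested, 9 were called higher and 1 lower (limma), with a median of 0.13 beside -0.02 over all genes. Among 14685 genes, 4.25% were called, 3.2% higher and 1.05% lower. A fit of the 6263 genes with a mean of at least 5 FPKM called 7.54% higher and 1.6% lower. The calls rest on few libraries: no member was called without KO WD 1 or without KO WD 2, 1 without WT WD 3, and 5 without WT WD 1 or WT WD 2, while 12 were called without KO WD 3. None was called when only these 2 groups were fitted or when WT WD 1 and KO WD 1, high in muscle genes, were left out. Calls over all genes fell likewise, from 624 to 17 without KO WD 1, 16 without KO WD 2 and 26 without WT WD 3. They were 253 without WT WD 1, 215 without WT WD 2 and 871 without KO WD 3. Only these 2 groups gave 16, and the fit without the libraries high in muscle genes gave 4. All 10 members kept their direction in each of these fits.

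Slc25a20 was at 10.1, 13.2 and 13.0 FPKM in WT and 53.8, 50.1 and 24.5 in KO on WD, a log2 difference of 1.67 ± 0.26 (adjusted p = 0.0186). The third KO library was well below the other two, yet all 3 lay above every WT library. Cpt2 rose with it, by 1.38 ± 0.20, and Cpt1b, the muscle and brown fat form of the enzyme that makes acylcarnitines, by 1.08 ± 0.18. Of 7 carnitine shuttle enzymes, 3 were called higher and none lower.

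Slc25a39 was at 33.2, 36.6 and 28.5 FPKM in WT and 92.9, 87.3 and 62.3 in KO (1.26 ± 0.16, adjusted p = 0.00928), again without overlap, and it had the smallest p of the family here. Its paralog Slc25a40 was at 1.10, 1.08 and 1.18 against 0.953, 0.884 and 1.02 (-0.12 ± 0.09), which was not called. The ratio of Slc25a39 to Slc25a40 was 29.5 ± 4.96 in WT WD and 85.7 ± 21.5 in KO WD, and 29.1 ± 2.71 in WT chow. Mitoferrins stayed uncalled, at -0.11 for Slc25a28 and -0.14 for Slc25a37.

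The citrate carrier Slc25a1 was at 73.1, 96.6 and 51.3 FPKM in WT and 189, 246 and 229 in KO (1.61 ± 0.29, adjusted p = 0.0226). It delivers citrate to the cytosol for fatty acid synthesis, and Acaca and Me1, which make malonyl-CoA and NADPH for that pathway, rose by 1.79 ± 0.20 and 1.58 ± 0.20. Of the 6 enzymes of citrate use listed, 4 were called higher. The oxoglutarate/malate carrier Slc25a11 was at 27.2, 27.6 and 24.8 against 40.5, 39.6 and 32.3 (0.48 ± 0.10) and the glutamate carrier Slc25a22 at 10.4, 11.2 and 7.85 against 20.01, 16.9 and 15.0 (0.76 ± 0.16). Slc25a10 was at 76.9, 79.2 and 65.6 against 86.5, 95.2 and 139 and not called (0.50 ± 0.17, adjusted p = 0.146).

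Slc25a34 had the largest difference of the family in iWAT. It was at 0.213, 0.510 and 0.343 FPKM in WT and 16.2, 8.29 and 2.18 in KO on WD, a log2 difference of 2.56 ± 0.48 (adjusted p = 0.0235). The reads behind these values were 13, 31 and 20 in WT against 834, 454 and 133 in KO. All KO libraries lay above all WT libraries, and they spread widely among themselves. Slc25a17, a peroxisomal member that carries cofactors such as coenzyme A, was at 13.9, 14.3 and 12.5 against 25.5, 23.6 and 21.2 (0.74 ± 0.13). Slc25a35 was at 9.31, 9.24 and 6.44 against 14.6, 13.9 and 17.3 (0.81 ± 0.15), and Slc25a5 at 131, 141 and 132 against 211, 227 and 183 (0.61 ± 0.12). None of these 4 overlapped between the genotypes.

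Slc25a24 again fell, from 6.54, 8.87 and 11.8 FPKM in WT to 3.93, 4.24 and 5.20 in KO (-0.86 ± 0.20, adjusted p = 0.0461), without overlap. The macrophage list summed to 362, 388 and 751 FPKM in WT and 383, 425 and 282 in KO, with all 7 tested genes below 0 in KO and 0 of them called. Erythroid genes summed to 7726, 3256 and 1799 FPKM in WT and 691, 766 and 1805 in KO. All 5 of that list were below 0, with a median log2 difference of -1.86, 4 of them without overlap and 1, Alas2, called. The part of either list in the carriers' differences was not tested. Slc25a23 was at 15.9, 17.5 and 15.2 against 17.7, 17.1 and 19.6 (0.15 ± 0.14, adjusted p = 0.610) and Slc25a25 at 5.29, 12.7 and 5.36 against 6.16, 3.54 and 12.1 (-0.12 ± 0.39), and neither was called. Of the members called for genotype on WD, 5 were shared by both tissues, which is 31.2% of the 16 in liver and 50% of the 10 in iWAT. Among all genes, 170 were called in both tissues, 5.78% of the 2943 called in liver and 27.2% of the 624 in iWAT, and 155 of the 170 had the same direction. The 5 members also had the same direction in both, with Slc25a1, Slc25a20, Slc25a22 and Slc25a34 higher in KO and Slc25a24 lower. The tissues share no library, but whether libraries came from the same mice is not given. The difference between the tissues was not tested.

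**Figure D3:**
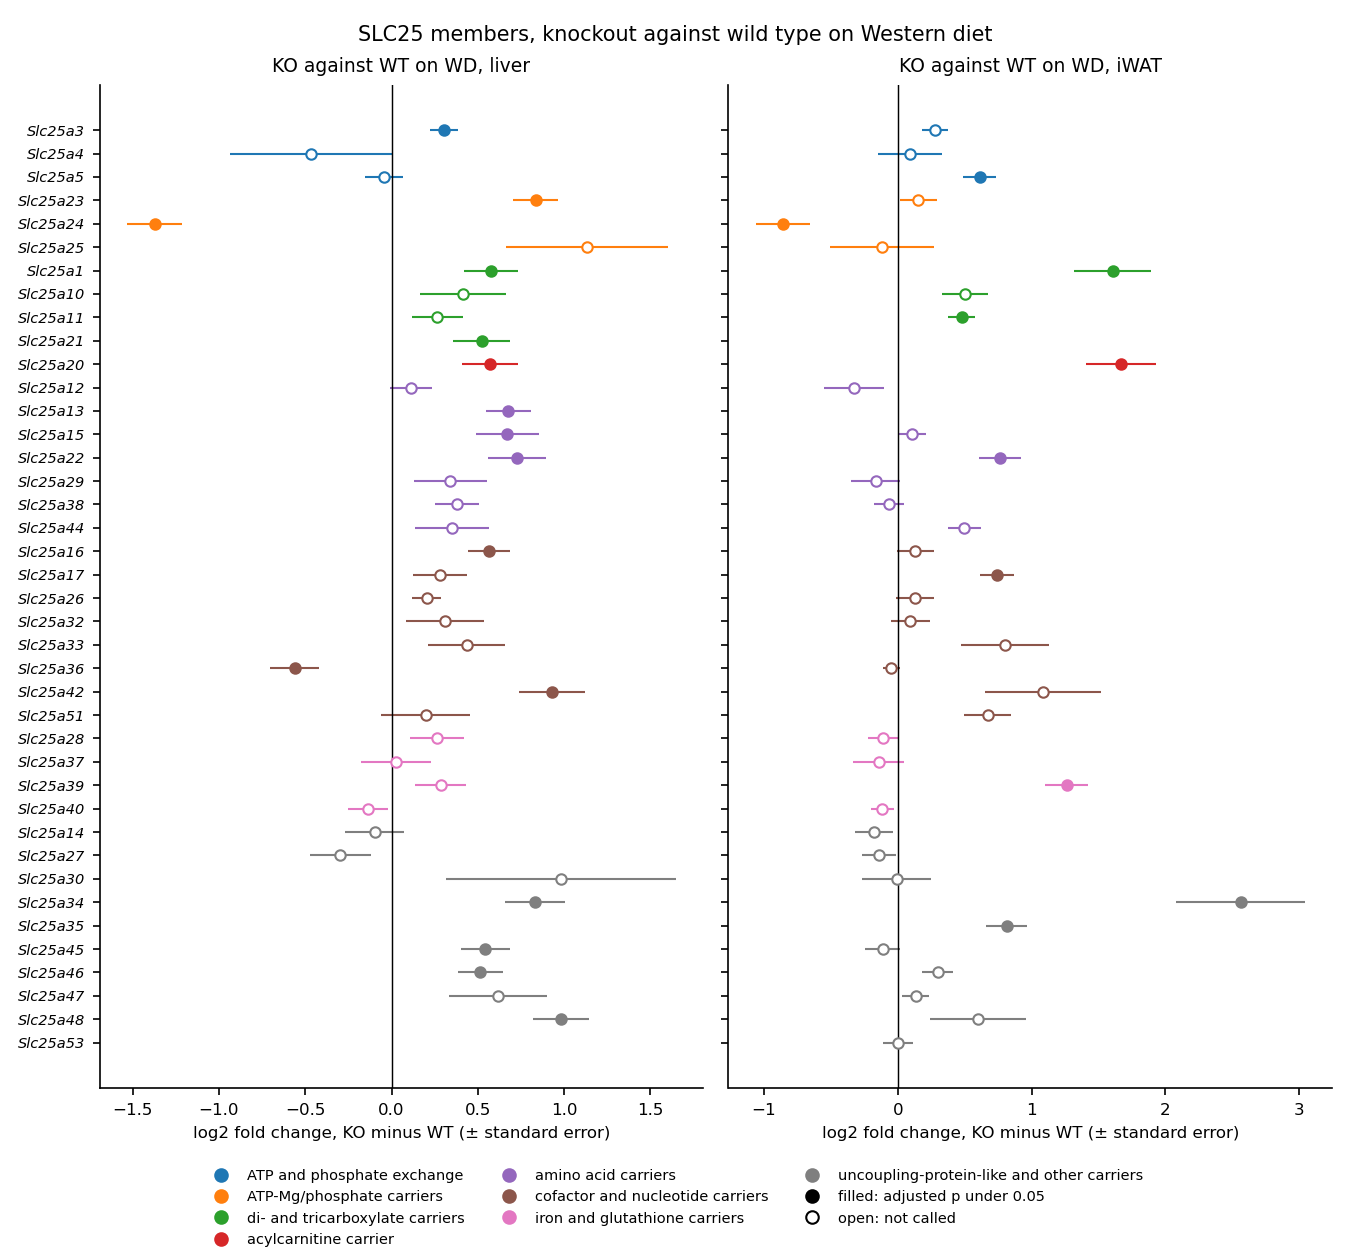
Log2 difference of KO minus WT on WD (horizontal axis, with its standard error) for 40 of the 41 members tested in liver or iWAT (vertical axis), coloured by role. Filled points have an adjusted p under 0.05, and Slc25a24 lies furthest left in both tissues, while Slc25a34 and Slc25a20 reach furthest right in iWAT.

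**Figure D4:**
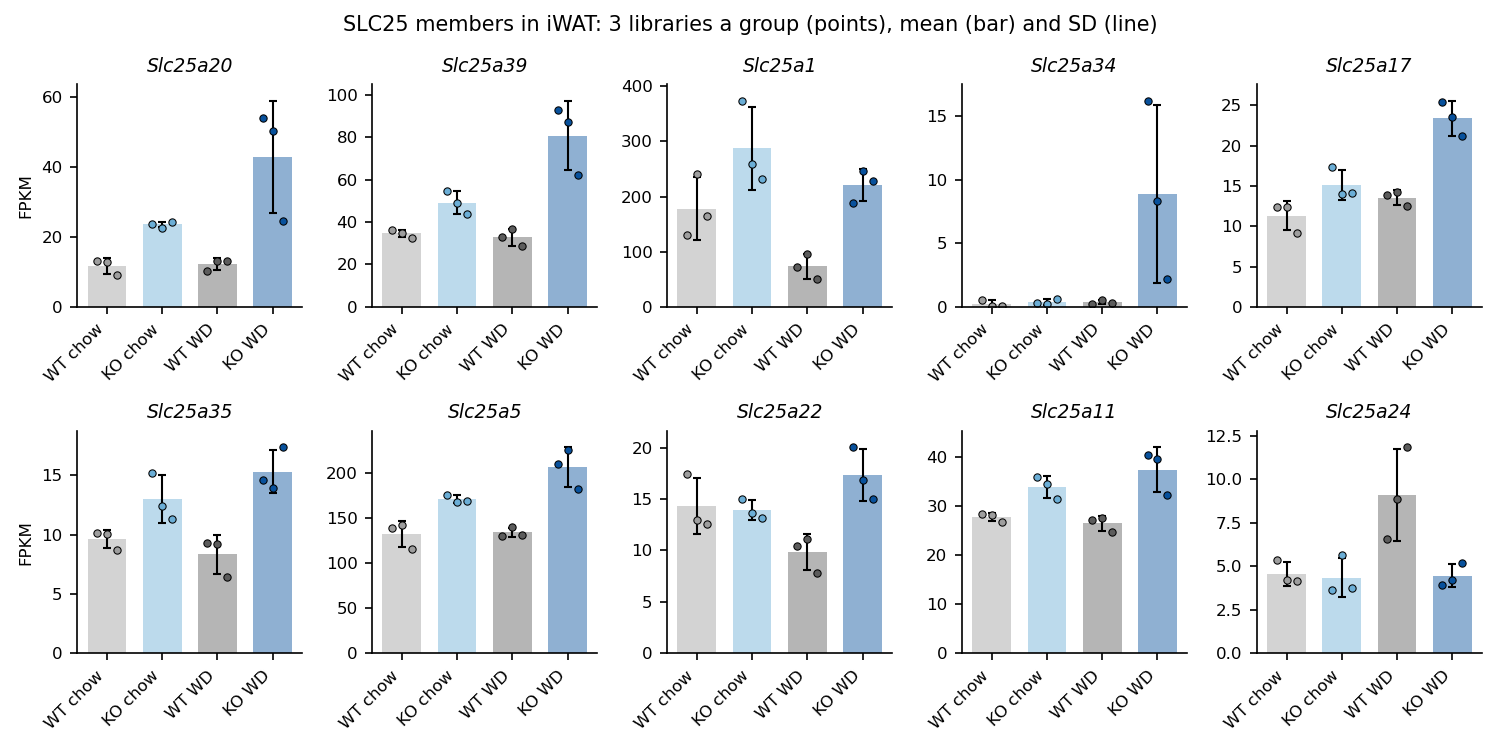
FPKM (vertical axis) of the 10 members called in iWAT on WD, in the 4 iWAT groups (horizontal axis), with each library as a point, the mean as a bar and the SD as a line (n = 3). Slc25a20, Slc25a39 and Slc25a17 are also higher in KO chow than in WT chow, and Slc25a24 is high in WT WD.

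Genes of brown or beige fat were higher in KO as well. The 8 genes of that list, Ucp1 and Cidea among them, summed to 136, 139 and 18.5 FPKM in WT WD, 1715, 1808 and 555 in KO WD, 134 to 141 in WT chow and 596 to 835 in KO chow, and none was at 0 in all 3 libraries of an iWAT group. On WD 7 of the 8 were called higher in KO. KO WD 1 and 2, the libraries with the highest sums, also held the highest Slc25a20, Slc25a34 and Slc25a39. Not all called members followed: among the KO WD libraries, Slc25a1 was lowest in KO WD 1 and Slc25a35 highest in KO WD 3. On chow, Slc25a34 overlapped between the genotypes, while the summed list did not. KO WD 1 and 2 also had the highest share of mitochondrially encoded reads (11.6% and 10.3%, against 5.27% in KO WD 3 and 2.49% to 3.42% in WT WD). With both left out, an alternative added after the data had been seen, no member and no gene was called (1191 genes at an unadjusted p under 0.05). That fit leaves 1 KO WD library, whose spread is assumed to be like that of the other groups. All 10 members kept their sign in it, and the median over the 39 members was 0.16, beside 0.13 with every library. Ucp1, itself of the SLC25 fold but named otherwise, was at 27.5, 28.0 and 0.168 FPKM in WT WD and 651, 699 and 129 in KO WD (5.30 ± 1.11, adjusted p = 0.0311). Cpt1b is in both the brown fat and the carnitine list. Muscle genes summed to 3637, 266 and 125 in WT WD and 1066, 10.7 and 22.4 in KO WD, highest in library 1 of each. The part of brown or beige cells in the carriers' levels was not tested.

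**Figure D5:**
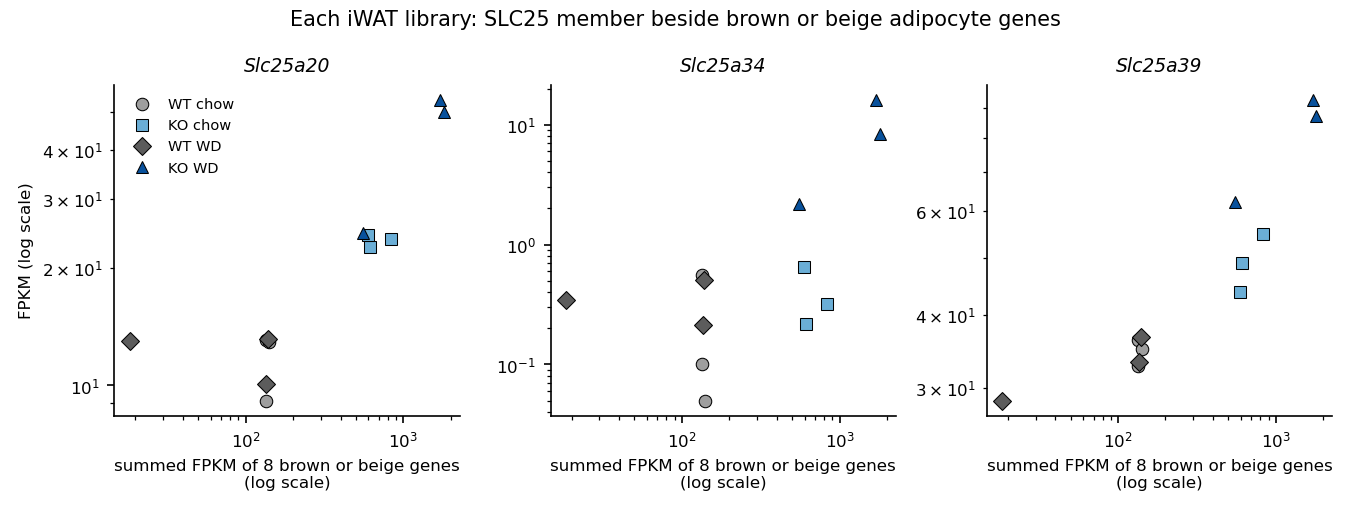
Each iWAT library by the summed FPKM of 8 brown or beige adipocyte genes (horizontal axis, log scale) and the FPKM of Slc25a20, Slc25a34 or Slc25a39 (vertical axis, log scale), marked by group. KO WD 1 and 2 lie furthest to the upper right, and KO WD 3 lies beside KO chow for Slc25a20.

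On chow, no member was called between the genotypes in iWAT, although 10 lay higher in KO without overlap. The comparison called 0% of 14685 genes (830 at an unadjusted p under 0.05, 9 of them members). DESeq2 and edgeR on the recovered reads called no member either. The 3 KO libraries lay above the 3 WT libraries for 10 of the 39 members and below for 0, where 5.86% of all genes lay above and 4.95% below. Slc25a20 was at 13.1, 12.9 and 9.13 FPKM in WT and 23.7, 22.6 and 24.2 in KO (0.96 ± 0.26, adjusted p = 0.707). With DESeq2 its adjusted p was 0.0575, and in the authors' deposited table, which holds a fold change of 1.02 on the log2 scale for this gene, it is 0.000123. Slc25a17 was at 12.4, 12.4 and 9.20 against 17.3, 14.0 and 14.2 (0.40 ± 0.13) and Slc25a39 at 36.3, 35.0 and 32.7 against 54.8, 48.9 and 43.7 (0.49 ± 0.16, adjusted p = 0.779). Slc25a34 overlapped, at 0.563, 0.0497 and 0.101 against 0.317, 0.219 and 0.646. Slc25a24 was at 5.34, 4.20 and 4.14 against 3.65, 5.63 and 3.73 (-0.07 ± 0.20), and in KO chow Slc25a23 was at 18.2, 21.9 and 15.9 and Slc25a25 at 4.15, 3.86 and 4.08. All 8 brown or beige genes and 68 of the 74 nuclear subunits of oxidative phosphorylation also lay above WT without overlap.

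The 3 other comparisons in iWAT gave no called member. In WT, WD against chow called 2.12% of genes. Slc25a1 was at 129.8, 241 and 164 FPKM on chow against 73.1, 96.6 and 51.3 on WD (-1.26 ± 0.29, adjusted p = 0.0560), and Slc25a24 at 5.34, 4.20 and 4.14 against 6.54, 8.87 and 11.8 (0.83 ± 0.20, adjusted p = 0.0652). Neither overlapped. Slc25a22 was at 17.5, 13.0 and 12.5 against 10.4, 11.2 and 7.85 (-0.50 ± 0.16). DESeq2 called 5 members there and edgeR 1, beside 1598 and 405 of 14685 genes. In KO, the diets gave 0% of genes called (1390 at an unadjusted p under 0.05, 7 of them members). DESeq2 called 3 members there, beside 118 of 14685 genes higher and 57 lower, and edgeR called 0 members and 0 genes. The WD libraries lay above chow for 11 members and below for 2, where 8.63% of all genes lay above and 6.45% below. Slc25a34 was at 0.317, 0.219 and 0.646 against 16.2, 8.29 and 2.18 (2.53 ± 0.48, adjusted p = 0.235), Slc25a17 at 17.3, 14.0 and 14.2 against 25.5, 23.6 and 21.2 and Slc25a39 at 54.8, 48.9 and 43.7 against 92.9, 87.3 and 62.3. The interaction in iWAT called 0% of genes (1011 at an unadjusted p under 0.05, 5 of them members) and no member with limma, edgeR or DESeq2. Its smallest p among the members were those of Slc25a22 (0.79 ± 0.22, adjusted p = 0.612), Slc25a34 (2.38 ± 0.68) and Slc25a39 (0.77 ± 0.23).

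The summed FPKM of the family was 1181 ± 159.6 in liver WT WD and 1589 ± 108 in liver KO WD (SD, n = 3), and 734 ± 70.4 and 1162 ± 56.4 in iWAT. With total-read scaling the liver means were 1204 and 1296, and the iWAT means 1013 and 1470. In the ADP/ATP exchangers, Slc25a5 over Slc25a4 was 1.36 ± 0.412 in iWAT WT WD (0.889, 1.515 and 1.667 by library). It was 1.91 ± 0.330 in KO WD (1.546, 2.193 and 1.983). The lowest ratio of each group was in library 1, the highest in muscle genes (3637 and 1066 FPKM), and the part of muscle in it was not tested. Slc25a42 over Slc25a16 was 0.647 ± 0.264 in iWAT WT WD and 1.49 ± 0.857 in KO WD, the latter with values of 2.26, 1.65 and 0.566 by library. In liver that ratio was 1.09 ± 0.150 in WT WD and 1.42 ± 0.249 in KO WD. Ratios of this kind do not depend on the scaling of a library.

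Other genes of mitochondrial transport and their pathways were counted beside the family. On WD in liver, KO against WT called 5 of 6 urea cycle enzymes higher, with Otc, which uses the ornithine that Slc25a15 brings in, at 0.47 ± 0.10. Of the 4 enzymes of the malate-aspartate shuttle, which runs through citrin, 3 were called higher, Got2 by 0.58 ± 0.14. Of 74 nuclear subunits of oxidative phosphorylation 33 were called higher and 0 lower, with a median of 0.31, near the 0.35 of the SLC25 members. Ucp2 fell by 1.33 ± 0.33 on the log2 scale and Mtch2, an outer membrane relative, rose by 0.33 ± 0.07. In iWAT 42 of the 74 subunits were called higher and 0 lower, with a median of 0.72 beside 0.13 for the members. Among 12 other inner membrane carriers 4 rose there, including Mpc2, a subunit of the pyruvate carrier (1.03 ± 0.12), and Letm1 (1.10 ± 0.15).

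The authors' deposited tables of KO against WT, which list genes below an unadjusted p of 0.05, held 21 members for WD liver, 13 higher and 2 lower at their adjusted p under 0.05. For WD iWAT they held 20 members, 12 higher and 1 lower, for chow iWAT 9 members, 1 of them past that threshold, and for chow liver 1 member, which was not. How many of all genes passed in those tables was not counted. A separate fit, DESeq2 on the recovered reads, called 3289 of 14019 genes for WD liver, 1374 higher and 1915 lower. For WD iWAT it called 1454 of 14685, 952 higher and 502 lower. In the authors' deposited table for WD liver, Slc25a24 has an adjusted p of 7.55e-12.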

How the data were processed

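The members and the lists were chosen with earlier results of these data known. Poly-T libraries of whole liver and iWAT were sequenced as paired ends, per the labels' protocols, and the genome build mm10 and the tools DESeq2 1.20.0 and HISAT2 2.0.5 stand in the submitters' processing notes. The sources used here name neither the read counter nor the strandedness. The authors deposited FPKM per gene for 24 libraries, gene lengths, read counts for the genes in their tables, and log2 fold changes, p-values and adjusted p-values per comparison. Multiplying FPKM by length and a factor per library gave whole reads for 100% of 540911 values above 0 (within 0.01 read), and 64434 of 64434 deposited counts equalled them. Another 56 columns of values per library or group were not used.

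Differences were tested with limma 3.58.1 (variance trend, robust) on log2(FPKM + 1), so that fold changes of low genes are understated, among genes with a mean of at least 0.5 FPKM. The 4 groups of a tissue shared 1 fit (8 groups between tissues), with Benjamini-Hochberg adjustment over all genes and a threshold of 0.05. The fit was tested on simulated data. Alternatives were other filters, a pseudocount of 0.1, other scalings, the recovered counts in DESeq2 1.42.0 and in edgeR 4.0.16, fits of only the groups compared, left-out libraries and a replicate block. R 4.3.3, Python 3.11.15, pandas 2.3.3, numpy 2.4.6 and matplotlib 3.10.9 were used. Equal replicate numbers were taken to pair libraries where each of the 3 pairs had a correlation of deviations over 0.1. This held for the genotypes on chow in iWAT (r = 0.184, 0.127 and 0.407), where the block called no member either, and for no other comparison. The tissues, whose 3 pairs were also above 0, gave 0.168, 0.0477 and 0.00284.

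Values in every library were given for Slc25a20, for the ATP-Mg/phosphate carriers, and in each comparison for up to 10 called members in each direction by smallest p, or the 3 of smallest p where fewer than 3 were called. Slc25a15 in WD liver goes beyond this rule. Other lists gave up to 2 called genes. Paralogs and other uncalled members given for contrast were chosen after their values were seen. The values of 1 member are not reported here, and it is left out of the plots.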

Additional observations from a re-analysis of the deposited data

Results flagged for a closer look

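For 9 members the groups moved in opposite directions under the same diet contrast, every library of one diet lying above every library of the other in one group and below in the other. Across tissues this was not tested. WD against chow in WT did so for 1 of 37 members tested in both tissues (2.7%), beside 2.52% of 12296 genes, and gave Slc25a12 a log2 difference of -0.289 in liver and 0.419 in iWAT. WD against chow in KO did so for 4 of 37 members (10.8%), beside 1.33% of genes, and gave Slc25a17 -0.229 in liver and 0.597 in iWAT, Slc25a39 -0.29 and 0.691, Slc25a3 -0.245 and 0.221, and Slc25a5 -0.256 and 0.265.

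Across genotypes within a tissue the interaction tests the difference, and none passed the threshold. In iWAT 1 of 39 members showed the pattern (2.56%), beside 0.388% of 14685 genes, and in liver 3 of 39 (7.69%), beside 1.01% of 14019 genes. The other 4 pairs of contrasts, all of KO against WT, gave 0 members, beside 0.26% to 2.82% of genes. In iWAT Slc25a22 differed between WD and chow by -0.501 in WT and 0.285 in KO (interaction adjusted p = 0.612, limma). In liver Slc25a48 differed by -0.695 in WT and 0.507 in KO (adjusted p = 0.0551, limma), Slc25a34 by -0.346 and 0.383 (adjusted p = 0.193, limma) and Slc25a26, the carrier of S-adenosylmethionine, by -0.191 and 0.0714 (adjusted p = 0.300, limma).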

How the results depend on the processing

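Counts of called members depended on scaling and on single libraries. For KO against WT on WD in liver, 16 were called, 7 with total-read scaling and 7 to 18 with 1 library left out. Over all genes, 2943 calls became 3366 with total-read scaling and 1354 to 2998 with 1 library left out. For WD against chow in WT liver, 11 became 6 with total-read scaling, 4 when only the groups compared were fitted, 4 without the libraries high in acinar or muscle genes, and 6 to 16 with 1 library left out. Over all genes, 2693 calls became 3968, 709, 331 and 1425 to 2791 in those fits. For KO against WT on WD in iWAT, 10 became 4 with no filter, 0 when only the groups compared were fitted, 0 without the libraries high in muscle genes, 0 without KO WD 1 and 2 together (chosen after seeing the data, with 1 KO WD library left that is assumed to vary like the other groups, and with all 10 in the same direction), and 0 to 12 with 1 library left out. Over all genes, 624 calls for KO against WT on WD in iWAT became 204 with no filter and 16 with only the groups compared. They became 4 without the libraries high in muscle genes and 16 to 871 with 1 library left out. Comparisons with 0 called gained some. In KO liver, the diets gave 3 with DESeq2, beside 633 of all genes. The liver interaction gave 1 with total-read scaling, 3 with DESeq2 and 0 to 3 with 1 library left out, beside 224, 528 and 15 to 330 of all genes. In WT iWAT, the diets gave 1 with a mean of at least 5 FPKM, 1 with median-of-ratios, 1 with total-read and 1 with quantile scaling, 1 with edgeR, 5 with DESeq2 and 0 to 1 with 1 library left out. Before libraries were left out, all genes gave 225, 369, 499, 388, 405 and 1598 calls there, in the same order. With 1 library left out, 14 to 215 of all genes were called higher and 8 to 72 lower. In KO iWAT, the diets gave 3 with DESeq2 and 0 to 3 with 1 library left out, and the iWAT interaction 0 to 1. Over all genes, DESeq2 called 118 higher and 57 lower between the diets in KO iWAT. With KO WD 3 left out, limma called 48 of all genes higher and 1 lower between these diets. The same fit called 5 higher and 3 lower for the interaction. The cause of these shifts was not tested.

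Between tissues Slc25a5 turned to -0.17 (adjusted p = 0.091, limma) with quantile normalization. Single values covered the log2 differences of the members followed by name, the family sums and the paralog ratios. Of their alternatives, 1357 counted as the same, which includes uncalled differences that changed sign. A call was lost in 188 and gained in 13, 7 sums or ratios moved by their SD or more, and 1 followed call reversed. Members not followed in a comparison, such as Slc25a3 between tissues, are outside these counts. With the replicate block, 16 members were called for KO against WT on WD in liver, 10 for WD against chow in WT liver, 9 for KO against WT on WD in iWAT, 30 between tissues, and 0 in each other comparison. Over all genes the block called 2565, 2319 and 687 in the same order, with 5147 higher and 5276 lower between tissues. With 3 libraries a group, precision of members near 0.5 FPKM is limited by few reads.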
